A study of Mus musculus with 14 samples.

Results

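Gbp2, Gbp3, Gbp5, Gbp7, Irgm1, Irgm2, Igtp, Iigp1, Ifi47 and Irf1 are the interferon-gamma-inducible GTPases and the transcription factor Irf1 described here. They were chosen by name, as members of the GBP and IRG families and a regulator of them. Of the 10 genes, 9 have a row in the deposited table of 43432 mouse genes, and all 9 were among the 17390 genes tested. Gbp5 was not analysed here. RNA-seq had been made from SiglecF+ CD11c+ lung cells of male 129S1 mice labelled as 10-12 weeks old. After bleomycin there were 4 groups of 3 libraries, MHCII-high and MHCII-low cells taken at 2 weeks and the same 2 kinds taken at 4 weeks. Controls given water were MHCII-low cells, with 2 libraries labelled as replicates 1 and 3. Bleomycin, a drug that injures the lung epithelium and is used to model fibrosis in mice, was given into the trachea at a labelled dose of 3 U/k. The labels give no engineered allele and no other agent for any group. No group of MHCII-high cells from water-treated mice was analysed here, so MHCII-high cells were compared only with MHCII-low cells and between times.

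Interferon-gamma is released mainly by T and NK cells and binds a receptor of the IFNGR1 and IFNGR2 chains. The receptor signals through the kinases JAK1 and JAK2 to gamma-activated sites (GAS) in promoters, that of Irf1 among them, and IRF1 in turn binds interferon-stimulated response elements (ISRE). The induced guanylate-binding proteins (GBP) and immunity-related GTPases (IRG) attack vacuoles that hold microbes, and in macrophages, including those that reside in the airspaces, they are widely used as a sign of exposure to interferon-gamma.

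The promoter sequences are shown first because GAS and ISRE are the motifs known for this regulation. RefSeq's promoter table for GRCm38.p6 held an entry for 9 of the 10 genes, the exception being Iigp1. The table is of the mouse reference strain, and the mice here were 129S1. In the 250 bases before the annotated start, GAS was searched as TTC and GAA with any 3 bases between them, which reads the same on both strands, and ISRE as a pair of GAAA with any 2 bases between, or a pair of TTTC with any 2 bases between on the other strand. Among the 8 genes with both an entry and values, 4 held a GAS match, 6 an ISRE match and 3 (Gbp7, Igtp and Irgm2) both, while Ifi47 held neither in this window. Of all 32851 promoters in the table, 7.02% held a GAS match, 2.98% an ISRE match and 0.332% both. A match is a run of letters and was not tested for binding. The 120 bases before the start are printed below 5′ to 3′ on the strand of the gene, with GAS and ISRE matches in capitals, for the 7 genes with a match: Irf1 at chr11:53769894-53770013, Gbp2 at chr3:142620543-142620662, Gbp3 at chr3:142559924-142560043, Gbp7 at chr3:142530216-142530335, Igtp at chr11:58199436-58199555 and Irgm2 at chr11:58214857-58214976, all on the plus strand, and Irgm1 at chr11:48871421-48871540 on the minus strand.
Irf1: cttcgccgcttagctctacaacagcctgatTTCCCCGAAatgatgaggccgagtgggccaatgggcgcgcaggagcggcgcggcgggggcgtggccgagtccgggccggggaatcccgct
Gbp2: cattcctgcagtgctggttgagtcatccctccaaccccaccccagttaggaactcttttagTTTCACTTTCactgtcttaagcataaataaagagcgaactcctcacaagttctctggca
Gbp3: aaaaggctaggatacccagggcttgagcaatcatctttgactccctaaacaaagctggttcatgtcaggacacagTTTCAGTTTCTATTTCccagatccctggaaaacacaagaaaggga
Gbp7: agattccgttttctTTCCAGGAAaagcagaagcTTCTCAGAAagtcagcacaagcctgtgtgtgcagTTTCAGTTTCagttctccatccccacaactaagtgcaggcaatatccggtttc
Igtp: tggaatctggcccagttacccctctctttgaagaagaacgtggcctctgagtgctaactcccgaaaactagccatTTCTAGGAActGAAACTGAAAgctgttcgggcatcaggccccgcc
Irgm2: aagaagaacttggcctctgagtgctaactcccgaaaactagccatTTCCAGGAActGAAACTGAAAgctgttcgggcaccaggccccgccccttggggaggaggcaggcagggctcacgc
Irgm1: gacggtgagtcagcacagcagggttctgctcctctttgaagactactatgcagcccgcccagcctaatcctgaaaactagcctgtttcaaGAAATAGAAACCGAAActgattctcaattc
The Irf1 stretch held 1 GAS match and no ISRE match. Gbp2 held 1 ISRE match, and the 2 ISRE matches of Gbp3 and the 2 of Irgm1 overlapped each other. Gbp7 held 2 GAS matches upstream of 1 ISRE match. Igtp and Irgm2 held the same arrangement, a GAS match with an ISRE match just after it, and the stretches of both genes were identical at 87 of 90 aligned bases (96.7%). No GAS match overlapped an ISRE match. The tabulated Irgm2 start, at 58214977, lies inside the deposited span of the gene rather than at its 5′ end, and the bases after the Irgm2 and Gbp7 starts were not found in a GENCODE transcript. Gbp3 and Irf1 each have a second tabulated start, whose window held no match.

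**Figure D1:**
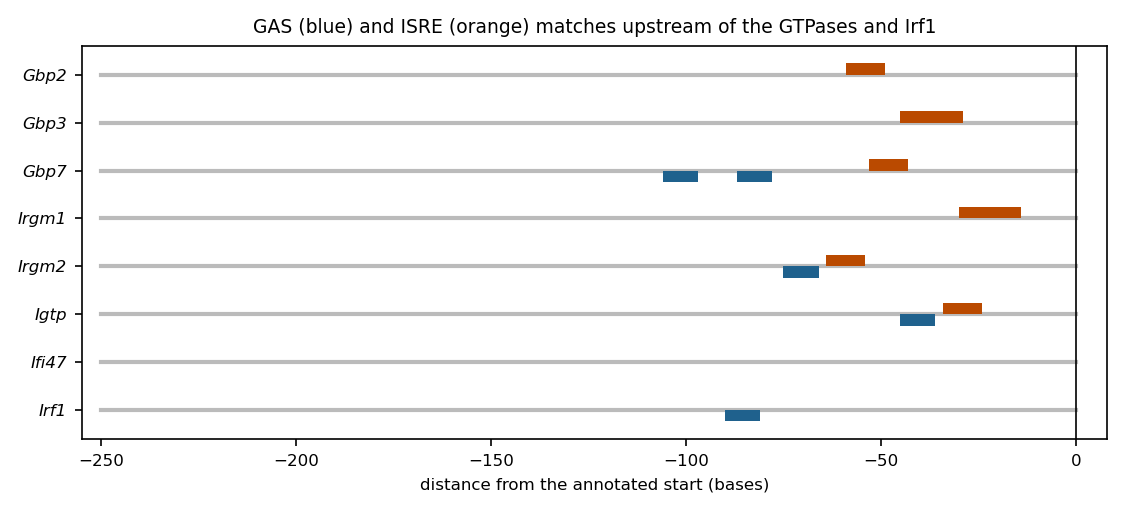
Positions of GAS (blue) and ISRE (orange) matches in bases relative to the annotated start, 1 row per gene. Matches lie within the 120 bases before the start in 7 genes, and Gbp7, Igtp and Irgm2 carry both kinds.

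Recovered reads ranged from 15106415 to 88059630 per library, and 1 read was worth 0.390 to 2.24 normalized counts, the unit of the deposited values. Mitochondrial ribosomal RNA took 3.12% to 29.0% of the reads and differed between groups. It took 24.9%, 22.5% and 26.2% in MHCII-high and 3.42%, 18.3% and 12.7% in MHCII-low cells at the earlier time, and 21.7% and 24.1% in controls, so the 2-week MHCII-low libraries lay below both other groups. At 4 weeks the shares overlapped, with 8.12%, 29.0% and 21.1% in MHCII-high and 3.12%, 23.1% and 5.10% in MHCII-low cells. All 9 listed markers of the labelled cell type passed the filter on low values, among them Itgax, which encodes CD11c, at 25185 to 44133 normalized counts. Some were lower in MHCII-high cells. Siglecf, a lectin of airspace macrophages used for the sort, was at 3056 to 3769 in MHCII-high against 6471 to 7231 in 2-week MHCII-low cells (adjusted p = 0.000864, limma) and at 3728 to 4358 against 7205 to 9551 at 4 weeks (adjusted p = 0.000389). The scavenger receptor gene Marco was also lower at both times, by log2 differences of -1.91 and -1.19, and Car4 at 2 weeks by -0.71. So 3 of 9 fell at 2 weeks and 2 of 9 at 4 weeks, beside 0.581% and 0.535% of all genes tested. The sum over the list was 271480 to 349940 in MHCII-high against 403030 to 491280 in 2-week MHCII-low cells, 290540 to 355070 against 345980 to 421330 at 4 weeks, and 291360 to 327710 in controls. Some lists of markers of other cells differed with MHCII level. The neutrophil, epithelial, and endothelial and fibroblast sums, given in the closing section, overlapped at 2 weeks. The summed B cell list was at 1204 to 1638 in MHCII-high against 49.4 to 219.2 in MHCII-low cells at 2 weeks, and overlapped at 4 weeks. The summed dendritic cell list was at 865.8 to 1912 in MHCII-high cells at 2 weeks against 104.1 to 171.9 in MHCII-low cells, and at 1145 to 2115 against 76.7 to 185.3 at 4 weeks. The summed monocyte and interstitial macrophage list was at 22714 to 32709 against 2247 to 3261 at 2 weeks and at 10978 to 11497 against 764 to 1198 at 4 weeks. Of 7 dendritic genes tested, 3 rose at 2 weeks and 4 at 4 weeks, beside 2.29% and 1.96% of all genes. Xcr1 (log2 differences of -0.14 and 0.69) and Clec9a (1.05 and 2.16) did not pass at either time. Of 7 monocyte and interstitial macrophage genes tested, 6 rose at each time, and Ly6c2 (1.83 and -0.51) did not pass. In these sorted bulk samples, fewer cells of a type and less RNA per cell cannot be told apart. Nothing in the labels says that same-numbered or other libraries came from separate mice, so p-values measure the spread between these libraries only.

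No gene of the group rose or fell past the threshold (Benjamini-Hochberg adjusted p of 0.05 over all genes tested, limma) in any of 8 comparisons. The highest library exceeded the lowest by 2.01-fold for Gbp7, 2.03-fold for Gbp3, 2.04-fold for Gbp2, 2.24-fold for Irgm1 and Irf1, 3.12-fold for Irgm2, 3.42-fold for Igtp and 3.63-fold for Ifi47. On the log2 scale the SD over libraries was 0.26 (Gbp3) to 0.56 (Ifi47) for these 8 genes, and the median of all genes tested was 0.68. The difference between the highest and the lowest group mean was 0.41 to 0.82 for the 8 genes, beside a median of 1.08 for all genes tested. Those medians were not matched for level. Each of the 8 genes lay above at least 54.4% of the genes tested in level per kilobase, so the medians include many genes with fewer reads. Iigp1 differed from the others, with an SD of 2.17, at levels where single reads matter.

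Compared per kilobase of exon, Gbp7 had the highest mean level over the libraries, 641 normalized counts per kb, above 87.6% of the genes tested. Gbp2 followed at 244, Ifi47 at 235, Igtp at 192, Irgm2 at 173, Irf1 at 123, Gbp3 at 120 and Irgm1 at 91.8 normalized counts per kb. Irgm1 was above 54.4% of the genes tested, so 8 of the genes lay in the upper part of the range of levels. Iigp1 was at 6.46 per kb, above 15.6%. When the 5 groups were ordered by their mean for each gene, 34 of 36 neighbouring pairs of groups had overlapping libraries. The exceptions were Gbp3, higher in controls than in MHCII-low cells at 2 weeks, and Irgm2, higher in controls than in MHCII-low cells at 4 weeks. Sorting by mean puts groups with close means side by side, so the ordering itself favours overlap. The same share was not computed for all genes, so it does not tell how flat these genes were. Comparisons of named groups are given below beside the share of all genes.

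**Figure D2:**
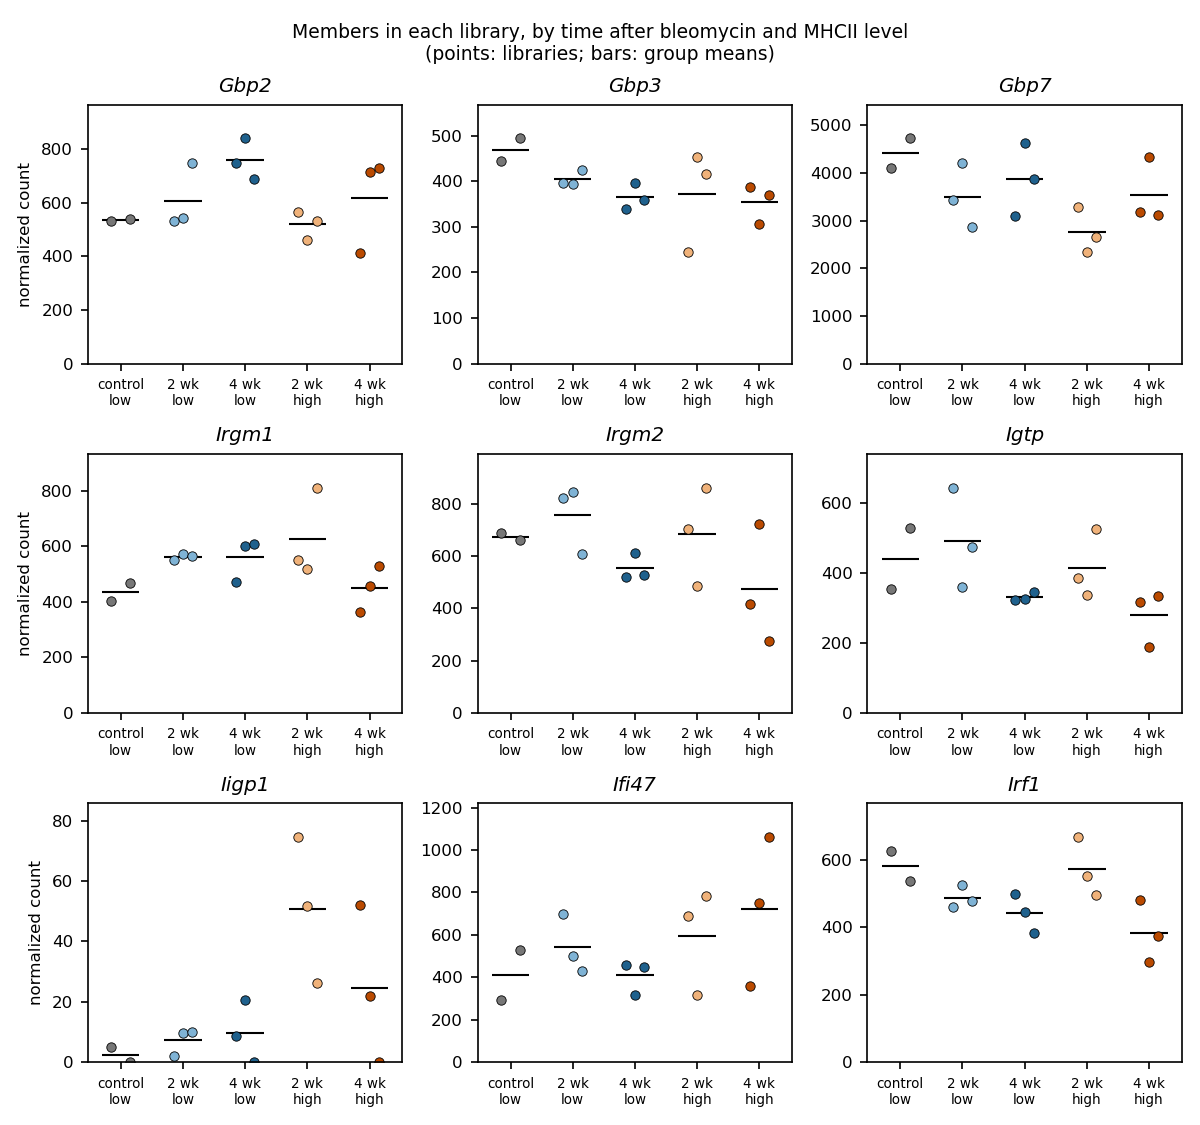
Normalized counts of the 9 genes in each of the 14 libraries, by group, 1 panel per gene with its own axis; points are libraries and bars group means. The libraries of most groups overlap in 8 panels, and in the Iigp1 panel the MHCII-high libraries at 2 weeks lie above all MHCII-low and control libraries.

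Irf1 (ENSMUSG00000018899, chr11:53770014-53778374, plus strand, GRCm38), the transcription factor that carries the interferon-gamma signal to secondary targets, was read in every library at 298.1 to 668.4 normalized counts. Controls 1 and 3 were at 626.8 and 538.9 normalized counts, MHCII-low cells at 2 weeks at 460.9, 525.5 and 477.4, and MHCII-low cells at 4 weeks at 499.1, 445.1 and 383.8. MHCII-high cells were at 668.4, 551.3 and 496.1 at 2 weeks and at 480.8, 298.1 and 373.7 at 4 weeks. Both controls lay above all 6 MHCII-low libraries after bleomycin, and all MHCII-high libraries at 2 weeks lay above those at 4 weeks. The log2 fold change of Irf1 from 2 to 4 weeks in MHCII-high cells was -0.59 ± 0.26 (SE), with an unadjusted p of 0.0368 and an adjusted p of 0.317 (limma). It was the 1 gene of 9 with an unadjusted p under 0.05 in that comparison, beside 14% of all genes tested. Between MHCII-high and MHCII-low cells the log2 difference of Irf1 was 0.22 ± 0.26 at 2 weeks and -0.22 ± 0.26 at 4 weeks. The 95% interval of its fold ran from 0.796 to 1.70 at 2 weeks and from 0.586 to 1.25 at 4 weeks.

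Gbp2, Gbp3 and Gbp7 are guanylate-binding proteins, large GTPases that assemble on pathogen vacuoles, and all 3 genes lie in 1 cluster on chromosome 3. Gbp2 (ENSMUSG00000028270, chr3:142620602-142638008, plus strand) was at 532.9 and 538.1 normalized counts in controls, at 530.3, 543.0 and 748.3 in 2-week MHCII-low cells and 747.8, 840.2 and 688.7 in 4-week MHCII-low cells. In MHCII-high cells Gbp2 was at 563.9, 462.0 and 532.6 at 2 weeks and at 412.1, 715.4 and 729.1 at 4 weeks. The MHCII-low libraries at 4 weeks lay above both controls, but no other pair of groups compared for Gbp2 was separate. Gbp2 differed between MHCII-high and MHCII-low cells by -0.21 ± 0.26 (log2, SE) at 2 weeks and -0.34 ± 0.26 at 4 weeks. Gbp3 (ENSMUSG00000028268, chr3:142560026-142573209, plus strand) was at 243.9 to 494.2 over all libraries, and its log2 differences between MHCII-high and MHCII-low cells were -0.17 ± 0.29 and -0.05 ± 0.29. The lowest Gbp3 library, MHCII-high at 2 weeks replicate 1, was in the same group as a library at 453.8.

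Gbp7 (ENSMUSG00000040253, chr3:142530342-142550149, plus strand) was the most abundant gene of the group in every library. It was at 4105 and 4726 normalized counts in controls, at 3426, 4206 and 2855 in 2-week MHCII-low cells and 3098, 4623 and 3882 in 4-week MHCII-low cells. MHCII-high cells were at 3294, 2350 and 2665 at 2 weeks and at 3182, 4337 and 3107 at 4 weeks. The MHCII-high libraries at 2 weeks had the lowest mean, and their highest library overlapped the MHCII-low range. The log2 difference was -0.33 ± 0.20 (SE) at 2 weeks, with a 95% interval of the fold from 0.598 to 1.06, and -0.12 ± 0.20 at 4 weeks. Gbp7 was called lower in MHCII-high cells when each library's trend of log2 value on GC content was removed: -0.65 ± 0.18 at 2 weeks (adjusted p = 0.0252, limma) and -0.41 ± 0.12 over both times (adjusted p = 0.0369), where 9.58% and 11% of all genes were called. That setting moved the median of all genes from 0.08 to -0.25 at 2 weeks and from 0.02 to -0.15 over both times. Relative to those medians the Gbp7 difference was -0.41 without and -0.39 with the correction at 2 weeks, and -0.24 and -0.26 over both times.

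Igtp (also called Irgm3), Irgm1 and Irgm2 are the regulatory IRG proteins, which sit on the cell's own membranes and keep the effector GTPases inactive there. Igtp (ENSMUSG00000078853, chr11:58199556-58207591) and Irgm2 (ENSMUSG00000069874, chr11:58199618-58222782) overlap by 7974 bases on the plus strand, so reads could be shared between them or dropped by the counting, and their values are uncertain to that extent. Igtp was at 354.5 and 527.7 normalized counts in controls, at 644.4, 361.5 and 473.5 in 2-week MHCII-low cells and 322.4, 325.5 and 344.4 in 4-week MHCII-low cells. In MHCII-high cells Igtp was at 385.4, 336.7 and 524.8 at 2 weeks and at 318.4, 188.3 and 333.5 at 4 weeks. At either MHCII level every 2-week library of Igtp lay above every 4-week library. The log2 change of Igtp from 2 to 4 weeks in MHCII-high cells was -0.59 ± 0.32 (SE), which did not pass the test. Irgm2 was at 276.3 to 861.8 over all libraries, and its change from 2 to 4 weeks in MHCII-high cells was -0.60 ± 0.31, with overlapping libraries. Irgm1 (ENSMUSG00000046879, chr11:48861968-48871683, minus strand) was at 404.3 and 467.5 in controls and at 472.5 to 606.6 in the 6 MHCII-low libraries after bleomycin, all above both controls. Its log2 difference from control at 2 weeks was 0.37 ± 0.29, with a 95% interval of the fold from 0.850 to 1.97. Irgm1 changed by -0.47 ± 0.26 between 2 and 4 weeks in MHCII-high cells, from 517.7 to 811.5 down to 362.1 to 528.2 in range.

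Iigp1 (also called Irga6) and Ifi47 (also called Irgd) are effector IRG proteins, and Iigp1 is known to load onto the vacuole of Toxoplasma. Iigp1 (ENSMUSG00000054072, chr18:60376029-60392627, plus strand) was the least abundant of the 9 genes, with at most 145 reads in a library, 346 reads in all and none in 3 libraries. It was at 5.1 and 0 normalized counts in controls, at 2.2, 9.6 and 9.9 in 2-week MHCII-low cells and 8.6, 20.6 and 0 in 4-week MHCII-low cells. MHCII-high cells were at 74.6, 51.6 and 26.1 at 2 weeks and at 52.0, 22.0 and 0 at 4 weeks. All 3 MHCII-high libraries at 2 weeks were above all MHCII-low and control libraries, whereas at 4 weeks the groups overlapped. The log2 difference of Iigp1 at 2 weeks was 2.73 ± 1.42 (SE), with a 95% interval from -0.22 to 5.67 and an adjusted p of 0.372 (limma), 0.432 by edgeR and 0.317 by DESeq2 on recovered reads. At 4 weeks it was 0.85 ± 1.42 with an adjusted p of 0.838. The part of the dendritic, monocyte and B cell marker signal of MHCII-high cells, given above, in the Iigp1 values was not tested.

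Ifi47 (ENSMUSG00000078920, chr11:49076587-49096974, plus strand) varied most among the 8 abundant genes. It was at 292.2 and 530.3 normalized counts in controls, at 700.3, 500 and 431.1 in 2-week MHCII-low cells and 459.7, 318.6 and 447.8 in 4-week MHCII-low cells. MHCII-high cells were at 689.5, 317.8 and 781.0 at 2 weeks and at 358.0, 750.0 and 1061 at 4 weeks. The highest library, MHCII-high at 4 weeks replicate 3, shared its group with one at 358.0, which lay inside the MHCII-low range. The log2 difference of Ifi47 at 4 weeks was 0.71 ± 0.39 (SE), with a 95% interval from -0.10 to 1.51 and an adjusted p of 0.418 (limma), and at 2 weeks it was 0.06 ± 0.39.

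Between MHCII-high and MHCII-low cells, 0 of the 9 genes passed the test at either time, where 2.87% of all genes tested passed at 2 weeks and 2.5% at 4 weeks. Over both times together 0 of 9 passed, beside 7.21% of all genes. On recovered reads edgeR also called 0 of 9 at 2 weeks, at 4 weeks and over both times, beside 2.48%, 2.1% and 8.23% of all genes, and DESeq2 0 of 9, beside 6.13%, 5.22% and 12.3%. An unadjusted p under 0.05 (limma) was found for 0 of 9 in each, beside 15.4%, 15% and 21.2% of all genes. The log2 differences of the genes not yet given were 0.13 ± 0.26 (SE) and -0.32 ± 0.26 for Irgm1, -0.17 ± 0.31 and -0.33 ± 0.31 for Irgm2 and -0.23 ± 0.32 and -0.28 ± 0.32 for Igtp, at 2 and 4 weeks. The median log2 difference of the 9 genes was -0.17 at 2 weeks and -0.22 at 4 weeks, where that of all genes was 0.08 and -0.03. Leaving out Iigp1, the folds at 2 weeks lay between 0.795 and 1.17, and the 95% intervals of all 8 genes stayed within 2-fold in either direction, from 0.535 to 1.83. At 4 weeks 7 of the 8 intervals stayed within 2-fold, and the exception, Ifi47, reached 2.86. These intervals bound the size of a change and do not show that the groups were equal. Of the 9 genes, 1 (Iigp1) had separate libraries at 2 weeks and 0 at 4 weeks, where 21.1% and 16.4% of all genes tested did.

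Against control, 0 of 9 genes passed in MHCII-low cells at 2 weeks, beside 1.91% of all genes tested, or at 4 weeks, beside 0.046%. The count was also 0 of 9 by edgeR, beside 1.76% at 2 weeks and 0.0115% at 4 weeks, and by DESeq2, beside 3.83% and 0.447%. An unadjusted p under 0.05 (limma) was found for 0 of 9, beside 12.7% and 6.12% of all genes. At 2 weeks the log2 differences were -0.25 for Irf1, 0.16 for Gbp2, -0.21 for Gbp3, -0.35 for Gbp7, 0.15 for Igtp, 0.16 for Irgm2, 0.43 for Ifi47 and 1.54 ± 1.58 (SE) for Iigp1. The medians of the 9 genes were 0.16 at 2 weeks and -0.21 at 4 weeks, with -0.09 and -0.06 for all genes. At 2 weeks the folds of the 8 abundant genes lay between 0.784 and 1.35. At 4 weeks they lay between 0.758 and 1.41, and only 3 of the 8 intervals stayed within 2-fold. Both comparisons use the same 2 controls. At 2 weeks, libraries of 3 of 9 genes were separate from both controls (Irgm1 above, Gbp3 and Irf1 below), beside 35.3% of all genes. At 4 weeks 6 of 9 were (Gbp2 and Irgm1 above, Gbp3, Irgm2, Igtp and Irf1 below), beside 27.4%.

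From 2 to 4 weeks, 0 of 9 genes passed in MHCII-low cells, beside 0.857% of all genes, and 0 of 9 in MHCII-high cells, beside 1.07%. The counts were 0 of 9 also by edgeR, beside 0.794% and 0.644%, and by DESeq2, beside 1.87% and 3.71%. In MHCII-low cells 0 of 9 had an unadjusted p under 0.05 (limma), beside 7.48%. In MHCII-high cells the median change of the 9 genes was -0.47, where that of all genes was -0.07, and Irf1, Irgm1, Irgm2, Igtp, Iigp1 and Gbp3 had negative values, from -2.16 ± 1.42 (SE) for Iigp1 to -0.03 ± 0.29 for Gbp3. Gbp2 (0.21 ± 0.26), Gbp7 (0.35 ± 0.20) and Ifi47 (0.24 ± 0.39) had positive ones. Libraries were separate for 2 of 9 genes (Igtp and Irf1, both lower at 4 weeks), beside 15% of all genes. In MHCII-low cells the median was -0.15, with 0.03 for all genes, and Igtp was separate, 1 of 9 beside 14%. Leaving out Iigp1, only 3 of 8 intervals stayed within 2-fold from 2 to 4 weeks in MHCII-high cells, with a lowest bound of 0.4175. In MHCII-low cells 5 of 8 did, with a lowest bound of 0.4326. The difference between times in the MHCII-high to MHCII-low ratio, tested as an interaction, was called for 0 of 9 genes by limma, edgeR and DESeq2, beside 0%, 0% and 0.325% of all genes. By limma 0 of the 9 and 5.68% of all genes had an unadjusted p under 0.05.

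**Figure D3:**
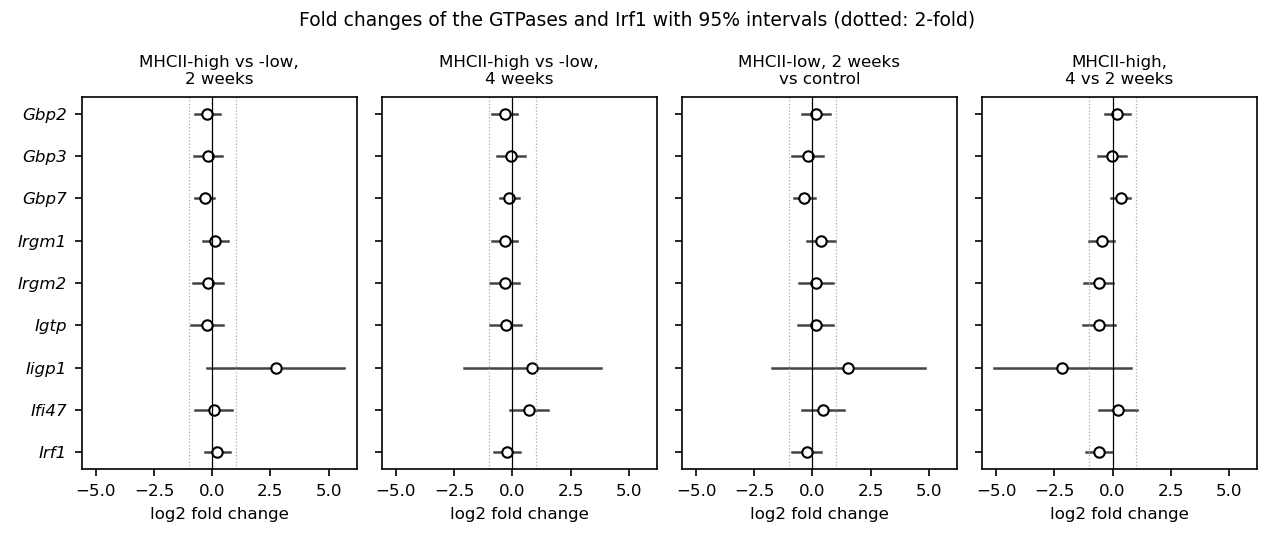
Log2 fold changes of the 9 genes with 95% intervals (limma), 1 row per gene. Panels show MHCII-high against MHCII-low cells at 2 and at 4 weeks, MHCII-low cells at 2 weeks against control, and MHCII-high cells at 4 against 2 weeks, with dotted lines at 2-fold. Intervals cross 0 except that of Irf1 from 2 to 4 weeks in MHCII-high cells, and those of Iigp1 are the widest.

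Among genes of interferon-gamma signalling, Ciita, a coactivator of MHC genes, rose in MHCII-high cells at both times and Nlrc5, another, at 2 weeks. Of 18 listed genes of the receptor, its signalling and the transcriptional regulators it induces, 16 were tested. At 2 weeks 2 rose and 0 fell, where 2.29% of all genes rose and 0.581% fell, with a list median of 0.27. At 4 weeks 2 rose and 0 fell, beside 1.96% and 0.535%, with a list median of 0.01. Over both times 5 rose and 0 fell, beside 5% and 2.21%. Ciita, the coactivator that switches on MHC class II genes, was at 1972, 1822 and 1755 normalized counts in MHCII-high cells at 2 weeks against 96.2, 141.7 and 172.3 in MHCII-low cells, and at 1320, 1396 and 2208 against 73.8, 93.1 and 86.4 at 4 weeks. These groups were wide apart at both times. Its log2 difference was 3.79 ± 0.33 (SE, adjusted p = 4.10e-07, limma) at 2 weeks and 4.23 (adjusted p = 4.99e-08) at 4 weeks. The cells were sorted on MHCII, the product of genes that Ciita controls.

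Ciita was also higher in MHCII-low cells at 2 weeks than in controls, at 38.6 and 52.5, by 1.54 ± 0.37 (log2, SE, adjusted p = 0.0271, limma). This call was lost without control replicate 1, control replicate 3, MHCII-low 2-week replicate 2 or MHCII-low 2-week replicate 3, with adjusted p up to 0.304, and in a fit of the compared groups alone (0.204). Socs3, a feedback inhibitor of cytokine receptors, also rose there, by 2.44 (adjusted p = 0.000228), so that 2 of the 16 signalling genes rose and 0 fell, beside 1.48% and 0.426% of all genes. Socs3 fell by 1.94 on the log2 scale between 2 and 4 weeks in MHCII-low cells (adjusted p = 0.0014), the 1 of 16 to fall, beside 0.748% of all genes. It was higher in MHCII-high than MHCII-low cells at 4 weeks by 1.22 (adjusted p = 0.0363), a call lost in 4 of 6 fits without 1 library (without MHCII-low replicate 1 or 2 or MHCII-high replicate 2 or 3, adjusted p up to 0.139). That 4-week call was also lost in 5 of 10 other settings (adjusted p up to 0.18). Over both times Socs3 rose by 0.77 (adjusted p = 0.03465, limma). This was lost in 8 of 12 fits without 1 library (up to 0.116) and in 4 of 10 other settings (up to 0.296). In fits of the compared groups alone the first 2 Socs3 calls were lost too (adjusted p = 0.0979 and 0.103).

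Nlrc5, the coactivator of MHC class I genes, was at 650.4, 1484 and 558.6 normalized counts in MHCII-high cells at 2 weeks against 161.1, 237.3 and 352.9 in MHCII-low cells, with no overlap. Its log2 difference was 1.77 ± 0.41 (SE, adjusted p = 0.0197, limma) at 2 weeks, lost without MHCII-low replicate 1, MHCII-low replicate 2 or MHCII-high replicate 2 (adjusted p up to 0.171), and 0.70 at 4 weeks (adjusted p = 0.454). The 2-week Nlrc5 call was also lost with no filter, with the mitochondrial ribosomal RNA covariate and in a fit of the compared groups alone (adjusted p up to 0.131). Over both times Nlrc5 rose by 1.24 (adjusted p = 0.0105), a call lost with the covariate (0.122). Irf9, a transcription factor of the interferon response, rose by 0.65 (adjusted p = 0.0281) and Jak2, a receptor kinase, by 0.44 (adjusted p = 0.0394) over both times. The Irf9 call was lost in 4 of 12 fits without 1 library and the Jak2 call in 7 of 12, with adjusted p up to 0.0808 and 0.107. The Irf9 call was also lost in 3 of 10 other settings (adjusted p up to 0.0653) and the Jak2 call in 5 of 10 (up to 0.475). The receptor chain Ifngr1 differed by 0.41 at 2 weeks (adjusted p = 0.236), Ifngr2 by 0.10, the kinase Jak1 by -0.17 and the myeloid factor Irf8 by -0.10, and none passed. Ifng itself had 0 reads in 12 of 14 libraries and at most 5 in one, and Socs1, an inhibitor of the JAK kinases, had at most 4, near the floor of 3 reads. The summed T and NK cell list was at 437.3 to 746.8 in MHCII-high and 173.7 to 402.8 in 2-week MHCII-low cells, with 299.5 to 523.9 and 109.8 to 385.8 at 4 weeks. Of its 11 genes 8 passed the filter on low values, and Nkg7 was at 0 in all 3 MHCII-high libraries at 4 weeks. The coreceptor gene Cd4 made up much of the sum, at 210.5 to 353.6 in MHCII-high and 21.5 to 194.7 in 2-week MHCII-low cells, and at 149.8 to 367.1 and 9.4 to 37.3 at 4 weeks. The T cell receptor subunit Cd3e did not follow it, at 36 to 222.3 and 49 to 92.4 at 2 weeks and at 0 to 20.4 and 11.7 to 213.5 at 4 weeks.

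Among other GBP and IRG genes, 14 of 16 listed have a row and 11 were tested, of which 1, Gbp9, rose at 2 weeks and 0 fell, beside 2.29% and 0.581% of all genes, and 0 passed at 4 weeks. Gbp9, a guanylate-binding protein, was at 460.5, 261.3 and 496.1 normalized counts in MHCII-high cells at 2 weeks and at 107.4, 122.6 and 87 in MHCII-low cells. At 4 weeks Gbp9 was at 407.9, 404.8 and 338.4 against 144.9, 263.7 and 166.3. MHCII-high libraries were above MHCII-low libraries at both times. The log2 difference of Gbp9 was 1.89 ± 0.38 (SE, adjusted p = 0.00729, limma) at 2 weeks, 1.04 at 4 weeks (adjusted p = 0.187) and 1.47 over both times (adjusted p = 0.00132). The 2-week call was lost without MHCII-high 2-week replicate 1 (adjusted p = 0.0522) and, with the share of mitochondrial ribosomal RNA as a covariate, at 2 weeks (0.0951) and over both times (0.053). The share of mitochondrial ribosomal RNA was higher in every MHCII-high than in every MHCII-low library at 2 weeks, as given above. The part of the dendritic, monocyte and B cell marker signal in the Gbp9 difference was not tested. The median of the 11 genes was 0.13 at 2 weeks and 0.08 at 4 weeks, beside 0.08 and -0.03 for all genes.

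Of 20 other interferon-gamma-inducible genes, 17 were tested, with 1 higher at 2 weeks, beside 2.29% of all genes, 2 at 4 weeks, beside 1.96%, and 0 lower at either time. Cd40, a costimulatory receptor of antigen-presenting cells, was at 91.1, 40.1 and 52.1 normalized counts in MHCII-high and 11.2, 1.6 and 0 in MHCII-low cells at the earlier time (adjusted p = 0.0472, limma). At 4 weeks Cd40 was at 60.4, 36.1 and 9.7 against 0 in all 3 MHCII-low libraries (adjusted p = 0.0214). Each Cd40 call was lost in 5 of 6 fits without 1 library, all but that without MHCII-low replicate 1 at 2 weeks and MHCII-high replicate 3 at 4 weeks, with adjusted p up to 0.179 and 0.0728. The 2-week Cd40 call was also lost with a replicate block, no filter, the stricter filter, the mitochondrial ribosomal RNA covariate, the compared groups only and edgeR (adjusted p up to 0.186). At 4 weeks it was lost with no filter, the stricter filter and the compared groups only (up to 0.102). The protease inhibitor Serpina3g was at 29.1 to 52.3 in MHCII-high and 0 to 2 in MHCII-low cells at the later time (adjusted p = 0.0154), lost without MHCII-low replicate 1 or 3 (up to 0.0728) and with the covariate or the compared groups only (up to 0.0939). Over both times 2 of the 17 rose, beside 5% of all genes, and 0 fell, beside 2.21%. Cd40 rose by 4.53 (log2, adjusted p = 0.000841, limma). That call held in all 12 fits without 1 library and all 10 other settings. Serpina3g rose by 3.78 (adjusted p = 0.00292, limma), a call that held in all 12 such fits but was lost with the covariate (0.0549). The list median was 0.02 at 2 weeks and -0.05 at 4 weeks, close to that of all genes. Of 17 genes of the type I interferon response, 0 passed at 2 weeks, beside 2.29% of all genes higher, and 2 rose at 4 weeks, beside 1.96%, Ifi44 and the dynamin-like antiviral GTPase Mx1, with list medians of 0.72 and 1.04. Over both times 6 of 17 rose, beside 5%, among them Ifi44 (2.29, adjusted p = 0.000227), Mx1 (2.38, adjusted p = 0.00669) and Mx2 (2.32, adjusted p = 0.0139). The last 2 of these calls were lost with the covariate (adjusted p = 0.059 and 0.0539). In MHCII-low cells at 2 weeks 3 of 17 were higher than in controls (Oas2, Ifi44 and Oas3), beside 1.48%, and all 3 were lost in a fit of the compared groups alone. The Ifi44 and Oas3 calls against control were also lost without any 1 of the 5 libraries (adjusted p up to 0.221 and 0.428) and that of Oas2 without control replicate 1 (0.0658). The 4-week Mx1 call was lost without any 1 of 5 libraries, MHCII-low replicates 1, 2 and 3 and MHCII-high replicates 1 and 3 (to at most 0.159), and in a fit of the compared groups alone (0.239), as was that of Ifi44 in the latter (0.232). With no filter and with the covariate, the 4-week Mx1 call and the Oas3 call against control were lost too. The Ifi44 call against control was also lost with no filter.

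**Figure D4:**
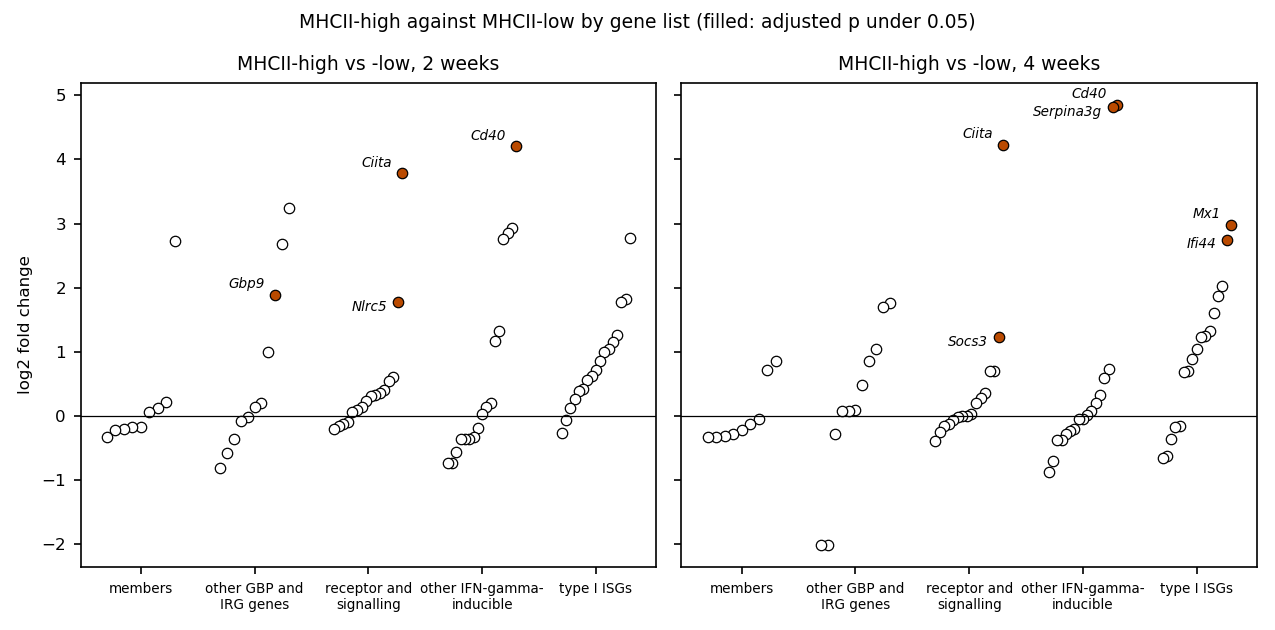
Log2 fold changes between MHCII-high and MHCII-low cells at 2 and 4 weeks for the 9 genes and 4 further lists, 1 point per gene; filled points passed the test and are named. No point of the 9 genes is filled, and the highest filled points at 4 weeks are Cd40 and Serpina3g.

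The 9 genes did not move as one across libraries. Over 14 libraries the Pearson correlation of log2 values between pairs of the 9 genes ran from -0.51 (Irf1 and Gbp2) to 0.47 (Irf1 and Igtp), with a median of -0.02 over 36 pairs. The mean of their scaled profiles was highest in MHCII-high replicate 3 at 2 weeks (0.57 SD units) and lowest in MHCII-high replicate 1 at 4 weeks (-0.61 SD units). Of 9986 other genes with a mean of at least 100 normalized counts, those most like this mean profile were Vps53 (r = 0.88), Slc35a2 (0.87), Fam134b (0.86), Ahcyl1 (0.83), Tmx1 (0.82), Sumf2 (0.82), Rab8b (0.82) and Rab11b (0.81). The least like were Adat1 (r = -0.91) and Zmym6 (r = -0.89). The libraries share their scaling and differ in depth, and with 9986 genes ranked over 14 points these values are a description. Without MHCII-high replicate 3 at 4 weeks, 3 of these 8 genes stayed among the 8 most alike.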

How the data were processed

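Per the labels' protocols, SiglecF+ CD11c+ cells were sorted by MHCII level on 2 sorter models (which sample used which is not said), mRNA was isolated on beads, and amplified cDNA was made into transposase-tagged libraries. The submitters' processing notes name mm10, STAR and DESeq2. Of the counting program and its rule for overlapping genes, nothing is said in the sources used. Per the file headers, the deposited values are normalized counts (a signal made by the authors), given with each gene's GC percent and exon length. Each library's values were whole multiples of a step worth 1 read, within the rounding of 0.05, for 99.8% to 100% of values. Spans of 90.1% of 42462 shared genes were identical in GENCODE annotation of GRCm38.

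limma 3.58.1 (R 4.3.3, trend) was fitted to log2(normalized count + 1) over all 14 libraries, for genes at 10 or more normalized counts in 2 or more libraries, so fold changes of low genes are understated. P-values were adjusted over all 17390 genes in each of 8 comparisons. The script was tested on simulated data. edgeR 4.0.16 and DESeq2 1.42.0 were run on recovered reads as alternatives, beside another pseudocount (5), filters (none, 50), TMM factors, a covariate, a GC correction, the compared groups only, a replicate block and each library left out. Members and gene lists were chosen with earlier results of these data known. By rule, all members, 11 signalling genes and up to 3 called genes per list, direction and comparison could be named, with the 8 genes most and 2 least like the members' mean profile. Of the signalling genes, 1 is not reported here. The values given for other cell types are sums over marker lists. Of these, the B cell, neutrophil, epithelium and stromal lists appear in the closing section.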

Additional observations from a re-analysis of the deposited data

How the results depend on the processing

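Of 567 alternative values for the fold changes of the 9 genes in 4 comparisons, 537 kept their direction and side of the threshold, 29 changed sign without passing the test, and 1, that of Gbp7 at 2 weeks after GC correction, passed the test. GC correction raised the number of members called from 0 to 1 (Gbp7) between MHCII-high and MHCII-low cells at 2 weeks and over both times. The other planned settings called 0 of the 9 in all 8 comparisons. GC correction turned the 2-week difference between MHCII-high and MHCII-low cells to -0.233 for Irgm1, -0.259 for Ifi47 and -0.0389 for Irf1, the difference from control at 2 weeks to 0.0629 for Gbp3 and 0.00707 for Irf1, and the change from 2 to 4 weeks in MHCII-high cells to 0.192 for Gbp3. The GC correction also recentred the mean of each library, and it moved the median of all genes. Relative to that median, the 2-week difference between MHCII levels was 0.049 without and 0.022 with the correction for Irgm1. In the same order it was -0.016 and -0.0041 for Ifi47 and 0.14 and 0.22 for Irf1. Against control at 2 weeks it was -0.12 and -0.15 for Gbp3 and -0.17 and -0.21 for Irf1. The mitochondrial ribosomal RNA covariate gave -0.0623 for Irgm1, 0.0312 for Igtp and -0.069 for Ifi47 between MHCII levels at 2 weeks, and -0.0801 for Igtp against control. TMM factors gave -0.00754 for Ifi47 at 2 weeks. The cause was not tested. With 1 library left out, the 2-week difference between MHCII levels ran from -0.344 to 0.102 for Gbp3, -0.0752 to 0.249 for Irgm1, -0.361 to 0.0528 for Irgm2 and -0.185 to 0.462 for Ifi47. At 4 weeks it ran from -0.117 to 0.0527 for Gbp3, -0.279 to 0.0133 for Gbp7 and -0.431 to 2.56 for Iigp1. Igtp against control at 2 weeks ran from -0.138 to 0.435, and the change from 2 to 4 weeks in MHCII-high cells from -0.303 to 0.144 for Gbp3 and -0.157 to 0.683 for Ifi47.

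Over all genes, calls between MHCII levels numbered 499 at 2 weeks (207 with the covariate, 1658 after GC correction) and 434 at 4 weeks (56 with the compared groups only, 898 by DESeq2). Against control they numbered 332 at 2 weeks (36 with the compared groups only, 857 after GC correction) and 8 at 4 weeks (0 with the compared groups only, 77 by DESeq2). The change with time gave 149 in MHCII-low cells (15 and 322 by those settings) and 186 in MHCII-high cells (0 and 638), and the interaction 0 (56 by DESeq2). With a replicate block 0 members were called in each comparison, and calls over all genes moved by over 1.5 times only for MHCII-low cells at 4 weeks against control, from 8 to 16. Deviations from the group means correlated by 0.00914 to 0.107 between same-numbered MHCII-high and MHCII-low libraries (6 pairs) and by -0.124 to 0.077 between others (12 pairs). Not every same-numbered pair was over 0.1 and not every library correlated best with its own number, so the numbers were not taken as pairs, and the labels do not say what a number shares. Among the calls named in the text, the block ended that of Cd40 at 2 weeks. In the whole 300-base promoter window, 8.30% of all promoters held a GAS match, 3.44% an ISRE match and 0.454% both. Depth limits Iigp1, Ifng and Socs1, whose values rest on few reads.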

Other observations

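Among the other GTPases of these families, 3 genes of low abundance had their highest group mean in MHCII-high cells at 2 weeks without passing the test. Tgtp2, a T-cell-specific GTPase of the IRG family, was at 51.5, 4.1 and 25.2 normalized counts there and at 0, 1.6 and 2.2 in MHCII-low cells, a log2 difference of 3.24 ± 1.30 (SE, adjusted p = 0.218, limma). Gm12250, also called Irgb10, was at 42.2, 12.3 and 59.9 against 0, 14.3 and 7.7, a difference of 2.68 ± 1.24 (adjusted p = 0.303). Gbp4 was at 66.9, 44.2 and 79.1 against 33.6, 35 and 23.7, a difference of 1.00 ± 1.11 (adjusted p = 0.743). All 3 rest on few reads in several libraries. Other genes of the same list had negative differences, also without passing: Tgtp1, the near-identical partner of Tgtp2, by -0.82 ± 1.30, Gm4951 by -0.59 ± 1.31 and Irgc1 by -0.37 ± 0.86. Reads may be split between Tgtp1 and Tgtp2 by the counting. These genes and Gbp8 were singled out after their values were seen.

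Gbp8, a guanylate-binding protein, was at 568.3 and 398.6 normalized counts in controls and at 185.7, 179.9 and 148.7 in MHCII-low cells at 2 weeks. The groups did not overlap, and the log2 difference was -1.47 ± 0.38 (SE, adjusted p = 0.0503, limma), just outside the threshold. In MHCII-low cells at 4 weeks Gbp8 was at 301, 514.7 and 411.5, which overlapped the controls.

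Marker sums of further cell types varied between groups. The B cell list was at 1204 to 1638 normalized counts in MHCII-high and 49.4 to 219.2 in MHCII-low cells at 2 weeks. The neutrophil list was at 2721 to 4839 and 3608 to 5113 in the same groups, mostly from 1 gene, Cxcr2. Of its other genes, Ly6g did not pass the filter on low values. S100a8 was at 328.4 to 396.5 and 130.6 to 321.6 there, and S100a9 at 26.2 to 153.3 and 17.5 to 100.7. The epithelial list was at 9723 to 18245 and 9371 to 15680 there, but at 11110 to 17969 in MHCII-high and 24446 to 31695 in MHCII-low cells at 4 weeks, with no overlap. Within it the surfactant gene Sftpc was higher in MHCII-high cells at both times, by log2 differences of 2.03 (adjusted p = 0.0376, limma) and 3.21 (adjusted p = 0.000896). Another surfactant gene, Sftpb, was higher at 2 weeks by 1.55 (adjusted p = 0.0364) but at -0.57 at 4 weeks (adjusted p = 0.556). The secretory cell gene Scgb1a1 had differences of -1.74 and -2.21 that did not pass at either time, though it was called lower over both times together. The B cell list at 4 weeks was at 763.1 to 3798 and 40.5 to 2187, and the neutrophil list at 791.2 to 1950 and 728.1 to 1334. At 2 weeks the endothelial and fibroblast list was at 466.2 to 2029 and 519.2 to 1094. Their part in the values of the GTPases was not tested.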
